A study of Mus musculus with 6 samples.

Results

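The genes described are those of the constitutive proteasome: the rows of the deposited gene table named Psma, Psmb, Psmc, Psmd, Psme or Psmg followed only by digits, leaving out the interferon-induced catalytic subunits Psmb8, Psmb9 and Psmb10. The rule took 44 of 52550 rows, and 42 of them had enough counts to be among the 18849 genes tested. RNA was sequenced from mouse alveolar epithelial type II (AT2) cells, which make lung surfactant, taken from dispase-digested C57BL/6 lungs as CD45-, EPCAM+ cells by magnetic sorting. All 6 libraries came from mice labelled Sftpc+/creERT2; Grp78f/f, which carry a tamoxifen-inducible Cre at the AT2-expressed surfactant protein C gene and floxed Grp78, the gene of the main chaperone of the endoplasmic reticulum (symbol Hspa5). The 3 control libraries are labelled as without tamoxifen (Tmx) and the 3 libraries labelled Grp78KO as with it, so tamoxifen and recombination cannot be told apart. A label of 10 days after a Tmx injection stands on controls too, which conflicts with their genotype label. The labels do not say whether same-group libraries came from separate animals, so p-values refer to variation among these libraries, which may be technical.

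Library totals ranged from 110770711 to 149520306 counts, and each tested proteasome gene had at least 652 counts in every library. Hspa5 was at 925 to 1355 CPM (counts relative to the library total, scaled by the trimmed mean of M-values, TMM) in controls and at 3809 to 9262 in the Grp78KO-labelled libraries. That is against the loss the label names, and gene-level counts cannot check the floxed exons. Every direction below is therefore between libraries as labelled. The third library of each group stood apart: for the median proteasome gene, controls 1, 2 and 3 lay at 0.17, 0.04 and -0.21 on the log2 scale against the mean of the controls. Grp78KO-labelled libraries 1 and 2 lay at 0.47 and 0.44 against the same mean and library 3 only at 0.11. Of the cell type markers, 10 AT2 genes summed to 105169 to 121862 CPM in controls and to 40707 to 51864 CPM in the Grp78KO-labelled libraries. The 8 fibroblast and smooth muscle markers summed to 215 to 566 CPM in controls and to 1177 to 1309 CPM in the Grp78KO-labelled libraries, with none at 0. The 6 airway markers summed to 31164 to 56987 and 32294 to 35905 CPM, the 6 endothelial markers to 411 to 445 and 418 to 716 CPM, and the 6 AT1 markers to 1670 to 1954 and 958 to 1021 CPM. Within these 3 lists genes went in both directions. Their log2 folds ran from -0.51 to 0.12 for airway, -0.22 to 0.95 for endothelial and -1.31 to 1.06 for AT1 markers. Without Lyz2, which AT2 cells also express, 10 leukocyte markers summed to 13.0 to 16.2 CPM in 5 libraries and to 117 CPM in Grp78KO-labelled library 3, where Ptprc (CD45) was at 10.99 CPM. The part of these other cells in the proteasome values was not tested. In such bulk samples, fewer cells of a type and less RNA per cell cannot be told apart.

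The proteasome is the protease that degrades ubiquitin-tagged proteins in the cytosol and nucleus, including misfolded proteins sent back from the endoplasmic reticulum. Its 20S core is a barrel of outer alpha rings, which gate entry, and inner beta rings, which hold the proteolytic sites. The 19S particle caps the core: its base has a ring of ATPases that unfold substrates, and its lid removes ubiquitin. Dedicated chaperones, among them the products of the Psmg genes, help assemble these parts, and the Psme genes encode alternative caps. Transcription of proteasome genes is known to be raised by NRF1 (gene Nfe2l1) through antioxidant response elements when proteasome activity is short.

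Promoters of 4 members are shown because they span the range of responses: Psmd8 had the highest fold of all members, Psmd6 almost none, and Psmb6 and Psmd9 were called higher and hold the core of an antioxidant response element. Each runs from 250 bases before the transcription start to 50 after it, 5′ to 3′ along the gene, from RefSeq on GRCm38.p6, the assembly called mm10. Capitals mark the letters TGACNNNGC, found on either strand. Psmd8 lies at chr7:29180624-29180923 (minus strand), Psmb6 at chr11:70525107-70525406 (plus), Psmd9 at chr5:123227940-123228239 (plus) and Psmd6 at chr14:14120896-14121195 (minus).
Psmd8: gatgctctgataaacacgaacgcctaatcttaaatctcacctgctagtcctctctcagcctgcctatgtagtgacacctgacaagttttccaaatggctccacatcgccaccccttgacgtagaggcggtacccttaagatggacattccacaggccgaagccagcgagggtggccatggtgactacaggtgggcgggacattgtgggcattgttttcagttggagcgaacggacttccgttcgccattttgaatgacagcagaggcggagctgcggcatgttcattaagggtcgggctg
Psmb6: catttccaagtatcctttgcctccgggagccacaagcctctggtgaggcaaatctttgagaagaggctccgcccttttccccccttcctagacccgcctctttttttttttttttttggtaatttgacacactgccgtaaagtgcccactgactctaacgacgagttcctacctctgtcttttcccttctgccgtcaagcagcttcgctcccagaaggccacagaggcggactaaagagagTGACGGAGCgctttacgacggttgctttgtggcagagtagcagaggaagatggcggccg
Psmd9: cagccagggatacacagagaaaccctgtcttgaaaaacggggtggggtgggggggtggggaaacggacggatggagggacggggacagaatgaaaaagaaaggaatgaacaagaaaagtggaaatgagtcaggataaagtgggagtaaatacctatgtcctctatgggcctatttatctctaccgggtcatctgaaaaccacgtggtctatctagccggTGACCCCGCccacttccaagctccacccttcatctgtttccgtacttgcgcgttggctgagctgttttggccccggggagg
Psmd6: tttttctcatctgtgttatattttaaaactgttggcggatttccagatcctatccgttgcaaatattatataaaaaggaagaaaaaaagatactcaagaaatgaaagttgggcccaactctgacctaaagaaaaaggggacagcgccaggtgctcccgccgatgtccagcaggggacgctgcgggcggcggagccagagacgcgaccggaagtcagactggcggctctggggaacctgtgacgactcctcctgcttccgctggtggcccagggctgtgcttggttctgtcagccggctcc

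Promoters of 36 of the 44 genes were in that table; Psma8, Psmb1, Psmb2, Psmb7, Psmc3, Psmd3, Psmd7 and Psmg2 had no entry. The letters TGACNNNGC stood in a promoter of 6 of the 36 genes (16.7%): Psmb5, Psmb6, Psmc6, Psmd9, Psmd12 and Psme4. Over all 27025 genes with a promoter the share was 14.0%. In Psmb6 the match began 9 bases before the start and in Psmd9 it began 31 bases before it. Of the other motifs searched on both strands, TGATGNAA (the core of a CEBP-ATF element) was found for 1 gene, Psmd13, against 4.51% of all genes. The CCAAT box (CCAAT) was found for 13 genes, or 36.1% against 41.1%, and the E-box CACGTG for 3, or 8.33% against 8.09%. The GC box GGGCGG was found for 22 genes, or 61.1% against 38.2%, and the ETS site CCGGAAGTG for 4 (Psmc1, Psmc2, Psmd13 and Psme4), or 11.1% against 2.25%. No member held the ER stress element, the cAMP response element TGACGTCA or a palindromic site centred on CGCG with a C added before it. Of all genes, 0.137%, 2.03% and 0.270% held them. The palindrome was not searched without that added C, so its presence in members is not known. The longer ER stress element contains the CCAAT box, and no other pair of these motifs was made to exclude overlap. The shares over all genes include genes not tested here, and shares among tested genes were not computed. A match in these windows is a description of letters, not a binding site.

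Proteasome genes leaned higher in the Grp78KO-labelled libraries, by small amounts. The median log2 fold of the 42 tested members was 0.34, against 0.02 over all genes tested, and 41 of 42 folds were above 0, the exception being Psme1. With edgeR's quasi-likelihood test and group as the only term, 9 members (21.4%) were higher at a Benjamini-Hochberg adjusted p under 0.05: Psma5, Psmb6, Psmc1, Psmc2, Psmd8, Psmd14, Psmd9, Psmg2 and Psmg4. The background share of genes called higher was 18.0% (36.8% in either direction), so this count alone is near it. No member was called lower, against a background of 18.8%, and limma-voom (background 18.8%), DESeq2 (background 18.0%) and an unadjusted p under 0.05 in edgeR also gave 0 lower. Other choices of test, scaling or filter gave 9 to 39 members called higher: 9 with limma-voom (background 17.3%), 20 with DESeq2 (19.4%), 13 with DESeq2 size factors in edgeR (18.7%), 23 with upper-quartile factors (21.7%), 9 with no filter on low counts (10.5%), 22 with a filter at 5 CPM (23.3%) and 39 with library size alone (33.0%). Over all genes, 3391 were called higher and 3547 lower with TMM, against 6218 and 1343 with library size alone and 4091 and 2825 with upper-quartile factors. The groups did not overlap for 14 members (33.3%), all higher, against 25.0% of all genes tested that were higher and 26.6% that were lower.

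Same-numbered libraries deviated together, and members were more uniform when compared within a number. In all 3 such pairs the Grp78KO-labelled library was above its control for 39 of 42 members (92.9%), against 35.3% of all genes tested. The 3 others were Psma2 (higher in 2 pairs), Psmd6 (1 pair) and Psme1 (1 pair). The median member's log2 ratio was 0.32, 0.38 and 0.30 in pairs 1, 2 and 3, against 0.0026, 0.0019 and 0.011 over all genes tested. With the replicate number as a block, edgeR called 33 members higher (78.6%, background 21.9%) and 0 lower (background 22.8%; 0 lower at an unadjusted p under 0.05). The 9 members called in neither fit were Psma2, Psma3, Psmd1, Psmd2, Psmd4, Psmd5, Psmd6, Psmg3 and Psme1. What the numbers stand for is not given in the labels. The pairing was taken from these same counts, so every call with the block depends on it.

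**Figure D1:**
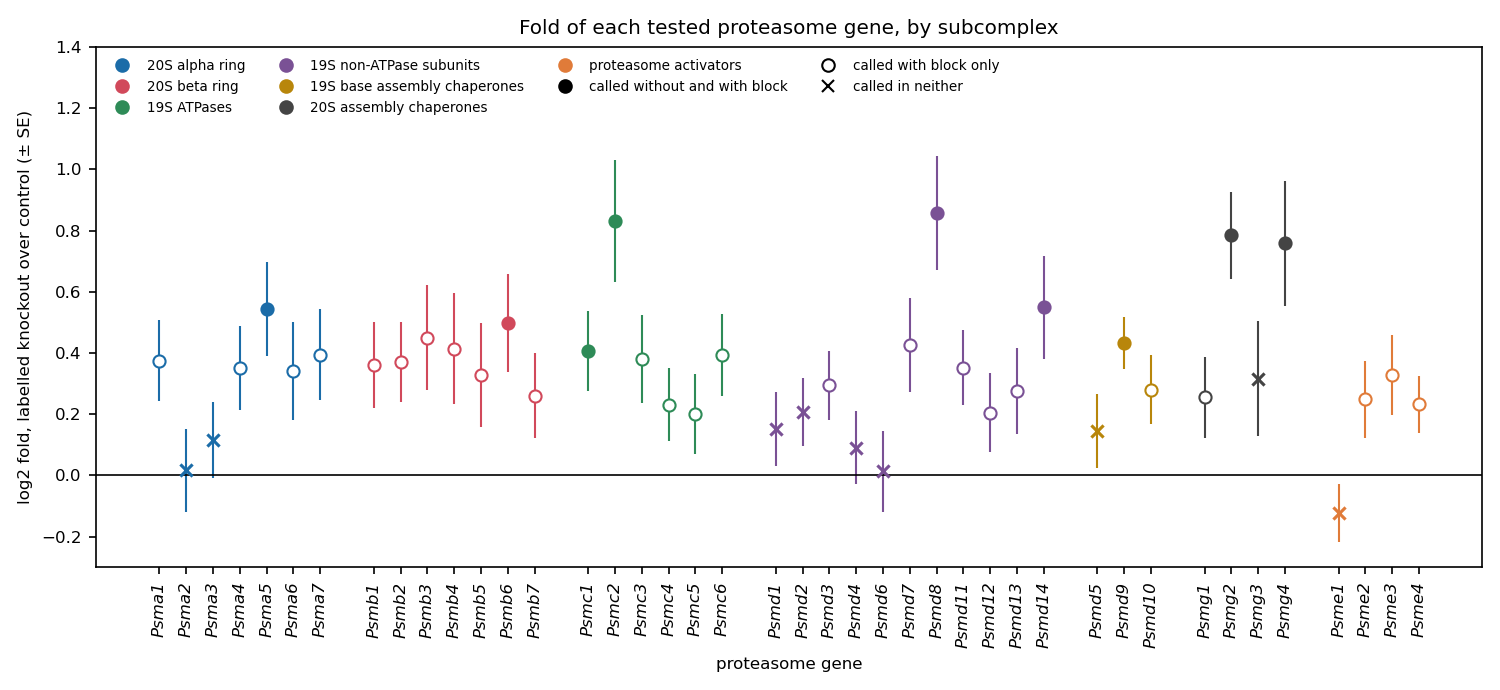
Log2 fold, Grp78KO-labelled libraries over controls, with its standard error, for 42 tested genes (x axis) coloured by subcomplex, from edgeR with TMM, the default filter and group as the only term. Filled circles are the 9 members called without and with the replicate block, open circles the 24 called with the block and not without it, and crosses the 9 called in neither; Psmd8 and Psmc2 sit highest and Psme1 alone lies below 0.

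**Figure D2:**
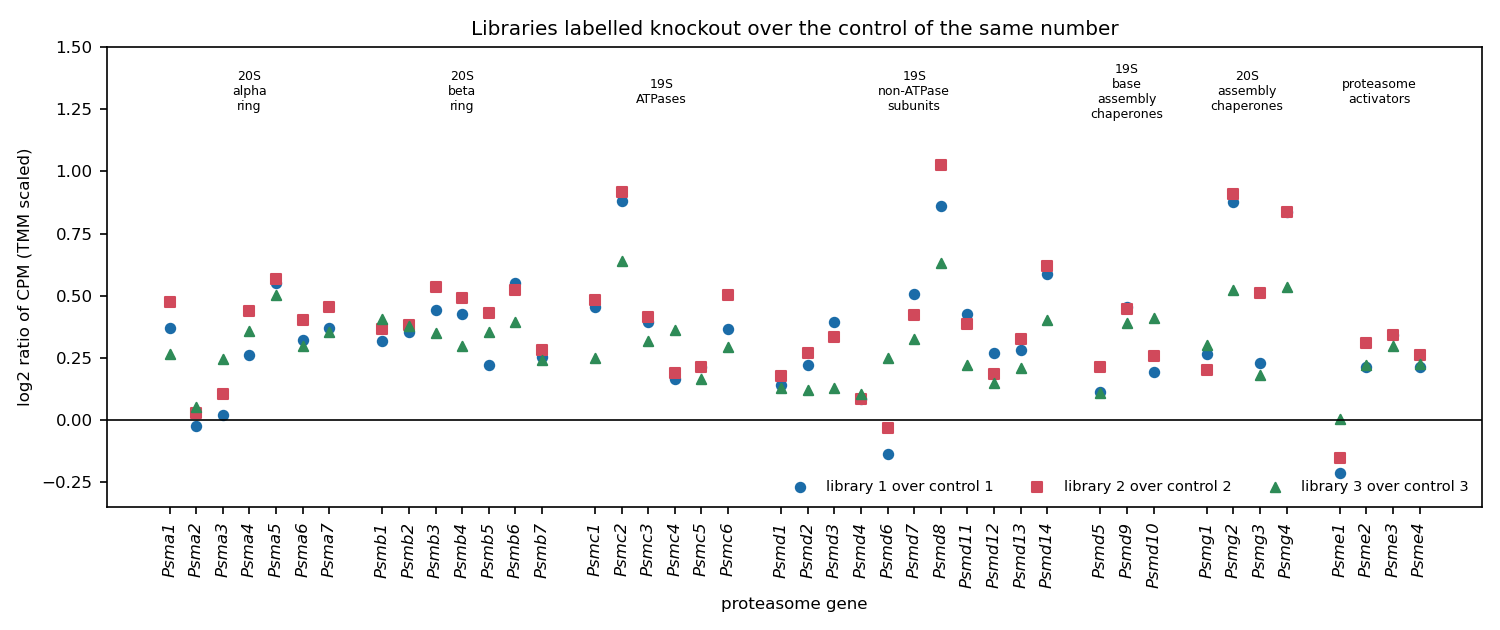
Log2 ratio of TMM-scaled CPM (y axis) between the Grp78KO-labelled library and the control of the same number, 3 points per gene, with genes on the x axis by subcomplex. For 39 of 42 genes all 3 points lie above 0; Psma2, Psmd6 and Psme1 have points on both sides.

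The calls without the block rested on few libraries. Leaving out control 1, 2 or 3 left 6, 2 and 3 members called higher, against backgrounds of 11.8%, 8.67% and 14.1%. Leaving out Grp78KO-labelled library 1 or 2 left 3 each time (backgrounds 10.1% and 9.82%). Leaving out Grp78KO-labelled library 3 raised the count to 29 (background 22.0%). Psmd9 and Psmg2 were called with any 1 library left out, at adjusted p in edgeR up to 0.0457 and 0.0335. Psmd8 lost its call without control 2 (adjusted p in edgeR = 0.0537). Psma5, Psmc2 and Psmg4 lost theirs without control 2, control 3 or Grp78KO-labelled library 1 or 2, at adjusted p in edgeR up to 0.0943, 0.0611 and 0.0871. Psmb6, Psmc1 and Psmd14 lost theirs without any 1 library other than Grp78KO-labelled library 3, at adjusted p in edgeR up to 0.142, 0.151 and 0.123. Their folds kept their direction throughout. With both libraries numbered 3 left out, 36 of 43 members tested were higher (83.7%, background 28.3%) and 2, Psme1 and Psmb11, lower (background 27.7%). Psmb11 was near the floor, at 32 and 18 counts in controls 1 and 2 and 0 and 6 in Grp78KO-labelled libraries 1 and 2. It did not pass the filter with all libraries and passed here through those controls, so its call shows no fall.

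Among the alpha ring genes, which form the gated ends of the core, 1 of 7 tested was called higher, Psma5, and 5 were called with the block, against 18.0% and 21.9% of all genes. Psma5 (GENCODE M21 on mm10, as for the positions that follow: chromosome 3, 108256926 to 108279974, plus strand) was at 50.2, 45.7 and 37.3 CPM in controls 1, 2 and 3 and at 73.5, 67.6 and 52.9 CPM in Grp78KO-labelled libraries 1, 2 and 3. All 3 Grp78KO-labelled libraries lay above all controls, library 3 by the least. Psma5 shares 60 exonic bases with 1700010K24Rik on the other strand, and the counting is not stated to use strand. The log2 fold was 0.54 (SE 0.154, adjusted p in edgeR = 0.0285). Psma1, Psma4, Psma6 and Psma7 had log2 folds of 0.34 to 0.39 with overlapping groups, and edgeR with TMM and its default filter called them with the replicate block (adjusted p from 0.00536 to 0.00958) and not without it. DESeq2 called Psma1, Psma4 and Psma7 without a block, as did edgeR with upper-quartile factors or the 5 CPM filter. Psma2 was nearly level, at 127, 114 and 95.3 CPM in controls and 125, 116 and 98.8 CPM in the Grp78KO-labelled libraries. Its log2 fold was 0.02 (SE 0.135, adjusted p in edgeR = 0.934). Psma3 had a log2 fold of 0.12 (adjusted p in edgeR = 0.494). Psma8, an alternative alpha subunit of the testis, had 2 to 12 counts per library and did not pass the filter on low counts.

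The beta ring carries the proteolytic sites, and its genes were the most uniform of the large groups, with log2 folds from 0.26 to 0.50. Of 7 tested genes 1 was called, where the share over all genes was 18.0%, and all 7 with the block, where it was 21.9%. Psmb6, the caspase-like subunit (chromosome 11, 70525367 to 70527858, plus strand), was at 108, 97.7 and 82.4 CPM in controls and at 158, 140.4 and 108 CPM in the Grp78KO-labelled libraries. The groups were separate, by little: Grp78KO-labelled library 3 lay just above control 1. Psmb6 had a log2 fold of 0.50 (SE 0.161, adjusted p in edgeR = 0.0446). Psmb5, the chymotrypsin-like subunit, was at 112, 93.2 and 75.8 CPM in controls and at 131, 126 and 97.0 CPM in the Grp78KO-labelled libraries. Here the groups overlapped, because Grp78KO-labelled library 3 was under control 1 (log2 fold 0.33, SE 0.170, adjusted p in edgeR = 0.164, or 0.0133 with the block). Psmb7, the trypsin-like subunit, had a log2 fold of 0.26 (adjusted p in edgeR = 0.177, or 0.0155 with the block). Psmb7 shares 405 exonic bases with Nek6 on the other strand. The structural subunits Psmb1, Psmb2, Psmb3 and Psmb4 had log2 folds of 0.36, 0.37, 0.45 and 0.41, and edgeR with TMM and its default filter called all 4 with the block (adjusted p from 0.00497 to 0.00827) and none without it. Psmb1, Psmb2 and Psmb3 were called without a block by DESeq2 and by edgeR with upper-quartile factors or the 5 CPM filter. Psmb11, the thymus-specific subunit, had 0 to 32 counts per library and did not pass the filter on low counts.

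Psmb8, Psmb9 and Psmb10 replace Psmb5, Psmb6 and Psmb7 in the immunoproteasome, and they were not called, with log2 folds of 0.19, 0.11 and 0.06 (adjusted p in edgeR = 0.273, 0.435 and 0.637; 0 at an unadjusted p under 0.05, and 0 by DESeq2, limma-voom or the block). With scaling by library size alone all 3 were called higher (background 33.0%), at log2 folds of 0.46, 0.37 and 0.32. The ratio of each constitutive subunit to its counterpart, per length of merged exons, does not depend on scaling. For Psmb6 to Psmb9 this ratio was 15.9, 14.1 and 12.4 in controls and 21.0, 21.2 and 13.8 in the Grp78KO-labelled libraries. Grp78KO-labelled libraries 1 and 2 lay above all controls and library 3 did not. Psmb9 shares 212 exonic bases with Tap1 and Psmb8 117 with Gm20496, both on the other strand, and Psmb5 109 with Mir686 on its own strand. The part of these overlaps in the ratios was not tested. The Psmb7 to Psmb10 ratio was 4.26 ± 0.244 in controls and 4.88 ± 0.457 in the Grp78KO-labelled libraries (SD, n = 3), and that of Psmb5 to Psmb8 5.08 ± 0.206 and 5.67 ± 1.25 (SD, n = 3). None passed a two-sided exact permutation test (p = 0.3, 0.3 and 0.4; adjusted over 5 ratios 0.375, 0.375 and 0.4), where 3 libraries against 3 cannot go below 0.1.

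The ATPases form the unfolding ring of the 19S base. Of these 6, 2 were called higher, Psmc1 and Psmc2, and all 6 under the block (shares over all genes 18.0% and 21.9%). Psmc2 (chromosome 5, 21785283 to 21803787, plus strand) was at 73.9, 71.3 and 54.7 CPM in controls and at 136, 135 and 85.2 CPM in the Grp78KO-labelled libraries. The groups were separate, and Grp78KO-labelled library 3 was again the lowest of its group. Its log2 fold was 0.83 (SE 0.199, adjusted p in edgeR = 0.016), a 1.78-fold rise. Psmc1 (chromosome 12, 100110154 to 100123405, plus strand) was at 79.1, 78.5 and 69.0 CPM in controls and at 109, 109.7 and 82.1 CPM in the Grp78KO-labelled libraries, also without overlap. The Psmc1 log2 fold was 0.41 (SE 0.130, adjusted p in edgeR = 0.0433). Psmc3 and Psmc6 had log2 folds of 0.38 and 0.39, and Psmc4 and Psmc5 of 0.23 and 0.20. With TMM and the default filter these 4 were called by edgeR under the block, at adjusted p of 0.00602, 0.00793, 0.0339 and 0.0316, and not without it. Psmc3 and Psmc6 were called without a block by DESeq2 and by edgeR with upper-quartile factors or the 5 CPM filter.

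The non-ATPase subunits of the 19S particle were the most mixed group, with log2 folds from 0.01 to 0.86. Psmd8 and Psmd14 were called higher among 11 genes tested, close to the 18.0% of all genes, and 7 were called with the block, against 21.9%. Psmd8, a lid subunit (chromosome 7, 29174188 to 29180701, minus strand), was at 138, 118 and 104 CPM in controls and at 250.5, 239.7 and 161 CPM in the Grp78KO-labelled libraries. The groups were far apart for libraries 1 and 2 and close for library 3. The log2 fold was 0.86 (SE 0.187, adjusted p in edgeR = 0.0113), a 1.81-fold rise. Psmd14, the lid enzyme that cuts ubiquitin chains off substrates (chromosome 2, 61711694 to 61800376, plus strand), was at 51.3, 47.0 and 38.9 CPM in controls and at 77.1, 72.1 and 51.5 CPM in the Grp78KO-labelled libraries. The groups touched: Grp78KO-labelled library 3 and control 1 were almost level (log2 fold 0.55, SE 0.169, adjusted p in edgeR = 0.0382). Psmd7, the partner of Psmd14 in the lid, had a log2 fold of 0.43 and Psmd11 of 0.35, and both were called by edgeR with the block (adjusted p = 0.00574 and 0.0117) and not without it under TMM and the default filter. Psmd3, Psmd12 and Psmd13 (log2 folds 0.29, 0.20 and 0.28) were likewise called by edgeR with the block, at adjusted p of 0.0294, 0.0369 and 0.016. Psmd3, Psmd7 and Psmd11 were called without a block by DESeq2 and by edgeR with upper-quartile factors or the 5 CPM filter. Psmd13 shares 329 exonic bases with Sirt3 on the other strand.

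The other 4 non-ATPase genes were called in neither fit. Psmd1 and Psmd2, the large scaffold subunits of the base, had log2 folds of 0.15 and 0.21 (adjusted p in edgeR = 0.36 and 0.179). Psmd4, a ubiquitin receptor, had a log2 fold of 0.09 (adjusted p in edgeR = 0.583). Psmd6, a lid subunit, was at 52.8, 48.5 and 37.2 CPM in controls and at 48.1, 47.5 and 44.1 CPM in the Grp78KO-labelled libraries. All 3 Grp78KO-labelled libraries lay inside the control range for Psmd6, with a log2 fold of 0.01 (SE 0.133, adjusted p in edgeR = 0.946). The contrast with Psmd8, a subunit of the same lid, was visible in each number: pair ratios on the log2 scale were 0.86, 1.03 and 0.63 for Psmd8 and -0.13, -0.03 and 0.25 for Psmd6.

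Of the 4 assembly chaperones of the core, 2 were called higher (Psmg2 and Psmg4), and 3 were called with the block, beside 18.0% and 21.9% of all genes. Psmg2, which pairs with Psmg1 to start the alpha ring, was at 9.51, 8.92 and 8.66 CPM in controls and at 17.4, 16.8 and 12.4 CPM in the Grp78KO-labelled libraries. Controls were tight and every Grp78KO-labelled library lay well above them (log2 fold 0.78, SE 0.142, adjusted p in edgeR = 0.00563). Its partner Psmg1 had a log2 fold of only 0.25 (adjusted p in edgeR = 0.164, or 0.0484 with the block). Psmg4 (chromosome 13, 34162964 to 34178173, plus strand), which works with Psmg3, was at 6.65, 6.20 and 4.99 CPM in controls and at 11.9, 11.1 and 7.23 CPM in the Grp78KO-labelled libraries. Its groups were separate, with Grp78KO-labelled library 3 only slightly above control 1 (log2 fold 0.76, SE 0.205, adjusted p in edgeR = 0.0244). Psmg3 had a log2 fold of 0.32 with overlapping groups (adjusted p in edgeR = 0.218).

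Psmd9, Psmd5 and Psmd10 act as chaperones of the 19S base, and 1 of the 3, Psmd9, was called higher (share over all genes 18.0%). Psmd9 (chromosome 5, 123169413 to 123250131, plus strand) was at 31.3, 30.1 and 28.9 CPM in controls and at 42.9, 40.9 and 37.9 CPM in the Grp78KO-labelled libraries. This GENCODE span begins well before the RefSeq promoter window printed above. Which start was used in these cells was not tested. Both groups were tight and separate, with a log2 fold of 0.43 (SE 0.0853, adjusted p in edgeR = 0.00785). Psmd10 also had separate groups, at 21.0 to 27.0 CPM in controls and 27.9 to 30.9 CPM in the Grp78KO-labelled libraries, with a log2 fold of 0.28 (adjusted p in edgeR = 0.0845, or 0.0247 with the block). Psmd5 had a log2 fold of 0.15 (adjusted p in edgeR = 0.376).

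Among the alternative caps, no gene was called without the block by DESeq2, limma-voom or edgeR with TMM and its default filter. At an unadjusted p under 0.05 in edgeR, 2 (Psme3 and Psme4) were higher, against 4477 of all 18849 genes tested. Psme3 and Psme4 were called by edgeR without the block with upper-quartile factors (background 21.7%). Psme3 was also called with the 5 CPM filter (23.3%), and Psme2, Psme3 and Psme4 with library size alone (33.0%). Psme1 encodes an interferon-induced subunit of the PA28 cap and was at 157, 145 and 134 CPM in controls and at 136, 130.4 and 134 CPM in the Grp78KO-labelled libraries. Its groups overlapped, and the log2 fold was -0.12 (SE 0.0936, adjusted p in edgeR = 0.333), turning to 0.14 when libraries were scaled by their size alone. Its partner subunit Psme2 was at 53.4 to 68.1 CPM in controls and 62.3 to 79.0 CPM in the Grp78KO-labelled libraries (log2 fold 0.25, adjusted p in edgeR = 0.156, or 0.0185 with the block). The Psme1 to Psme2 ratio per exon length was 2.03, 2.14 and 2.20 in controls and 1.51, 1.55 and 1.89 in the Grp78KO-labelled libraries, without overlap. A two-sided exact permutation test gave p = 0.1, the smallest it can give here (0.25 adjusted over the 5 ratios). Psme3, the nuclear cap subunit that interferon does not induce, had a log2 fold of 0.33 and Psme4, the single-chain cap, of 0.23 (adjusted p in edgeR = 0.0837 and 0.084, or 0.00712 and 0.0208 with the block). Psme4 was the only 1 of these 4 with separate groups, at 73.0 to 82.7 and 84.5 to 96.6 CPM, and Grp78KO-labelled library 3 was there the highest, not the lowest. The Psme3 to Psme1 ratio was 0.170 ± 0.012 in controls and 0.233 ± 0.0325 in the Grp78KO-labelled libraries (SD, n = 3; two-sided exact permutation p = 0.1).

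Summed over its genes, every subcomplex was higher within each number. The 7 tested and 1 untested alpha ring genes summed to 677, 599 and 509 CPM in controls and to 796, 747 and 615 CPM in the Grp78KO-labelled libraries. The beta ring summed to 736, 651 and 539.5 CPM in controls and to 952, 881 and 685 CPM in the Grp78KO-labelled libraries. For both rings Grp78KO-labelled library 3 lay within the control range. The ATPases summed to 401 ± 47.3 and 539 ± 85.8 CPM and the non-ATPase subunits to 928 ± 90.4 and 1180.1 ± 173 CPM in controls and Grp78KO-labelled libraries (SD, n = 3). The ratio of group means was 1.21 for the alpha ring, 1.31 for the beta ring, 1.34 for the ATPases and 1.27 for the non-ATPase subunits. It was 1.44 for the Psmg chaperones, 1.20 for the base chaperones and 1.08 for the caps. All 44 genes together summed to 3046 ± 352 CPM in controls and to 3821 ± 519 CPM in the Grp78KO-labelled libraries (SD, n = 3).

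**Figure D3:**
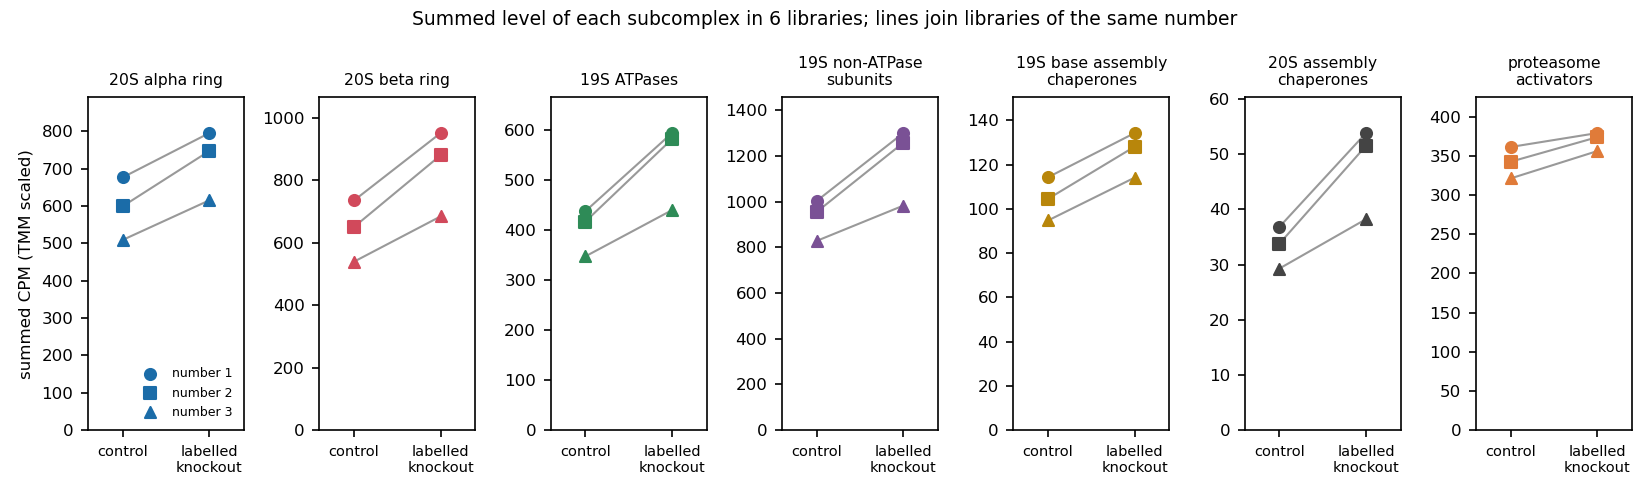
Summed TMM-scaled CPM of each subcomplex (y axes from 0) in 3 controls and 3 Grp78KO-labelled libraries, with lines joining libraries of the same number. Every line rises, most for the 20S assembly chaperones and least for the activators, and libraries numbered 3 (triangles) are the lowest of their group in every panel.

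Of 4 ratios between subcomplexes, 2 did not overlap between groups, and none was tested. The alpha to beta ring ratio was 0.920, 0.921 and 0.944 in controls and 0.836, 0.849 and 0.899 in the Grp78KO-labelled libraries, without overlap. That of the ATPases to the alpha ring was 0.647, 0.696 and 0.682 in controls and 0.747, 0.779 and 0.715 in the Grp78KO-labelled libraries, again without overlap. The caps relative to the whole core overlapped between groups, at 0.256 to 0.307 in controls and 0.217 to 0.274 in the Grp78KO-labelled libraries. The 19S subunits relative to the core were level, at 1.08 ± 0.0527 in controls and 1.10 ± 0.0242 in the Grp78KO-labelled libraries (SD, n = 3).

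Set against the median tested member of the same library, which removes the scaling, 4 genes lay higher in all 3 Grp78KO-labelled libraries than in any control: Psmd8, Psmc2, Psmg2 and Psmg4. Their mean positions differed by 0.40, 0.37, 0.33 and 0.29 on the log2 scale. For 18 of the 42 members the position was lower in all 3, among them Psme1 (by -0.56), Psma2 (-0.42), Psmd6 (-0.42), Psmd4 (-0.35) and Psma3 (-0.32). The reference was the median level of the 42 members in each library, not their median fold, so the counts of 4 and 18 depend on it. Psmc3 was among the 18 (by -0.069), though its log2 fold of 0.38 was above the members' median of 0.34. These positions describe change relative to that reference and do not show that a gene stayed level or fell. The share of all genes without overlap on this measure was not computed. Under TMM scaling that share was 25.0% higher and 26.6% lower. Scaling by library size alone moved the median of all genes by 0.26 on the log2 scale. With it the members' median log2 fold was 0.60, against 0.27 over all genes, and 39 of 42 were called higher (92.9%, background 33.0%).

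Levels per kilobase of merged exons, from the GENCODE M21 models of all 44 genes, were spread over a wide range within each ring. In controls the beta ring ran from Psmb6 (120.4 ± 16.2 CPM per kilobase, SD, n = 3) through Psmb4 (115 ± 18.2), Psmb5 (104 ± 20.4) and Psmb3 (95.2 ± 15.1) to Psmb7 (76.7 ± 10.2), Psmb2 (50.1 ± 6.52) and Psmb1 (32.5 ± 4.87). Neighbours among the first 4 had means closer than their SDs. Those SDs include shifts shared by the members of a library, and within each control these 4 kept this order. Merged models can overstate the length, as for Psmb1 with 3427 bases, which lowers its level. The alpha ring ran from Psma6 (79.4 ± 12.5) to Psma5 (35.8 ± 5.25), the ATPases from Psmc5 (48.3 ± 5.68) to Psmc6 (24.3 ± 2.63) and the non-ATPase subunits from Psmd2 (58.7 ± 3.50) to Psmd12 (17.5 ± 1.88). Psmd8 stood at 54.4 ± 7.77 in controls, near Psmd2, and at 98.5 ± 22.2 in the Grp78KO-labelled libraries, where Psmd2 was at 67.8 ± 6.98 CPM per kilobase (SD, n = 3). Psmc2 was at 37.3 ± 5.81 in controls, below all ATPases other than Psmc6, and at 66.4 ± 16.2 in the Grp78KO-labelled libraries, beside Psmc1 at 62.9 ± 9.82 CPM per kilobase (SD, n = 3). The Psmg chaperones were the least abundant of the 42 tested genes, at 6.94 to 10.7 CPM per kilobase in controls, and Psme1 had the highest mean of all members there, at 131 ± 10.5 CPM per kilobase (SD, n = 3).

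**Figure D4:**
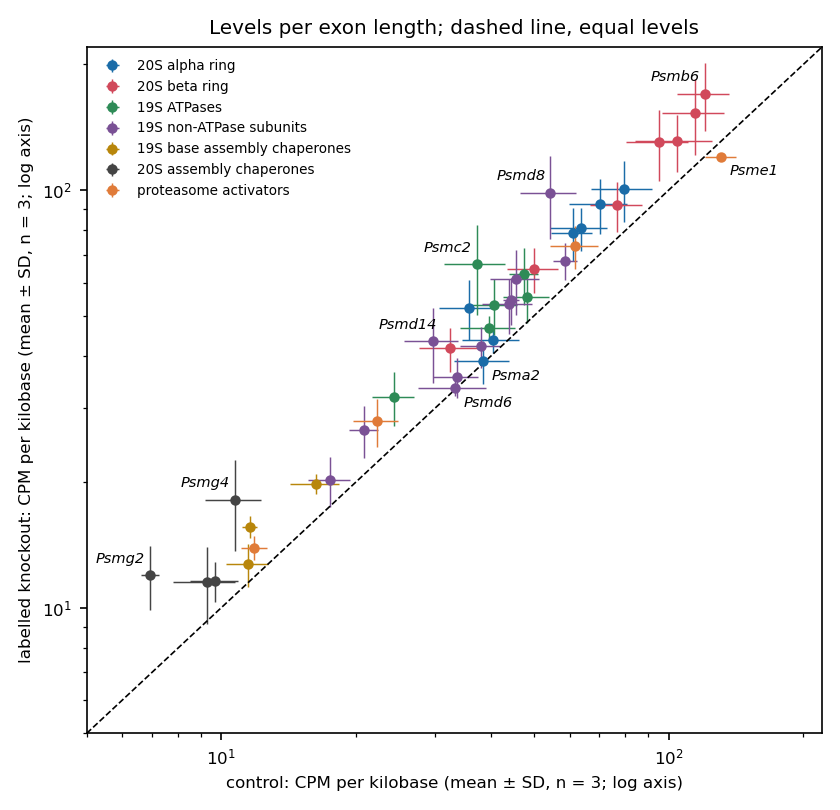
Mean CPM per kilobase of merged exons in controls (x, log axis) and in Grp78KO-labelled libraries (y, log axis), with SD over 3 libraries, for 42 tested genes; the dashed line marks equal levels. Nearly all points lie above the line, Psmd8, Psmc2, Psmg2 and Psmg4 farthest, while Psma2 and Psmd6 lie on it and Psme1 under it.

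The other genes of the pathway did not lean one way under TMM scaling. Of 18 proteasome-associated proteins and ubiquitin shuttles with a row, 2 were higher and 2 lower, with a median log2 fold of 0.03. Over all genes 18.0% were higher and 18.8% lower, so neither count exceeds the background. With the block 2 were higher and 4 lower (backgrounds 21.9% and 22.8%), AI314180 and Ubqln4 being the additions, named after their values were seen. With scaling by library size alone 11 were called higher (background 33.0%) and 0 lower. Zfand2a, a stress-induced factor that binds the 19S cap, was at 26.9, 27.0 and 19.9 CPM in controls and at 57.2, 54.5 and 36.9 CPM in the Grp78KO-labelled libraries (log2 fold 1.01, SE 0.191, adjusted p in edgeR = 0.0067). Txnl1, a thioredoxin-like protein of the 19S cap, had a log2 fold of 0.62 (adjusted p in edgeR = 0.0378). The shuttle gene Ubqln1 fell by 0.51 on the log2 scale (adjusted p in edgeR = 0.0258), and it was not called with scaling by library size alone (log2 fold -0.25). Txnl1 lost its call without any 1 of control 2, control 3 and Grp78KO-labelled libraries 1 and 2, and Ubqln1 without any 1 of controls 1 and 2 and Grp78KO-labelled libraries 1 and 2. Their adjusted p in edgeR then reached 0.12 and 0.0997. Pomp, the chaperone that brings beta subunits together, was level under TMM at 61.2 to 77.9 and 65.4 to 73.6 CPM (log2 fold -0.0015, SE 0.109, adjusted p in edgeR = 0.993), a value whose sign depends on the scaling. With scaling by library size alone Pomp was called higher (log2 fold 0.26, adjusted p in edgeR = 0.0394, background 33.0%).

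Of 11 genes that control proteasome transcription through NRF1 and NRF2, 2 were higher, near the background of 18.0%, and none lower by edgeR (background 18.8%; 0 lower at an unadjusted p under 0.05, and 0 by limma-voom and DESeq2). With the block 3 were higher and 1 lower (backgrounds 21.9% and 22.8%). Mafk, a small Maf partner of these factors, was at 60.8, 70.8 and 58.7 CPM in controls and at 163, 161 and 80.2 CPM in the Grp78KO-labelled libraries (log2 fold 1.09, SE 0.257, adjusted p in edgeR = 0.0155). Vcp, the ATPase that pulls proteins out of the endoplasmic reticulum, was at 459, 444 and 391 CPM in controls and at 832, 817 and 505 CPM in the Grp78KO-labelled libraries (log2 fold 0.74, SE 0.201, adjusted p in edgeR = 0.0253). Both calls ended with 1 library left out, Mafk without control 1, control 3 or Grp78KO-labelled library 1 or 2 (adjusted p in edgeR up to 0.0619) and Vcp without any library other than Grp78KO-labelled library 3 (up to 0.0923). Nfe2l1 itself was at 229, 256 and 260.2 CPM in controls and at 322, 349.6 and 258 CPM in the Grp78KO-labelled libraries, so that library 3 overlapped the controls (log2 fold 0.32, SE 0.137, adjusted p in edgeR = 0.104). Nfe2l2, which encodes NRF2, had a log2 fold of -0.37 (adjusted p in edgeR = 0.111). Of the ubiquitin genes, the stress-induced polyubiquitin gene Ubb had a log2 fold of 0.20 and the ubiquitin fusion gene Rps27a of 0.57 (adjusted p in edgeR = 0.495 and 0.09). With the block Rps27a was called higher by edgeR (adjusted p = 0.00576) and Ubb was not (0.0997).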

How the data were processed

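The authors deposited 1 table of raw gene counts by symbol; per the labels' protocols the libraries were made with a NEBNext Ultra RNA kit and read from both ends. The submitters' processing notes name mm10 and edgeR 3.7, while aligner, counter and annotation were not given in the sources used here. Genes with a count of 2 outnumbered those with 1 by 1.63 to 1.76 times, as when mates are counted separately.

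All genes were fitted in R 4.3.3 with edgeR 4.0.16 (filterByExpr, TMM, robust quasi-likelihood test). Group was the sole covariate, and the common biological coefficient of variation was 22.3%. P-values were adjusted by Benjamini-Hochberg over the 18849 genes tested and called under 0.05. SE is log2 fold over the root of the F statistic. As a pairing check, each library's deviation from its group mean was correlated over genes: libraries sharing a number gave 0.174, 0.147 and 0.281, others -0.227 to 0.116. All same-number values exceeded 0.1, so numbers were taken as pairs, and the fit with the replicate block is given where it changes a call. Control 2 with Grp78KO-labelled library 1 also exceeded 0.1, at 0.116, so this cut does not single out same-number pairs. The pairing was read from the same counts that the block fit tests. Alternatives used DESeq2 1.42.0, limma 3.58.1 (voom), other scalings and filters, and left-out libraries. Scripts were tested on simulated counts.

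Members, subcomplexes and lists were chosen with earlier results of these data known, so calls stand beside the background share and no list was tested as a set. Named genes are members, Hspa5, Psmb8 to Psmb10, Nfe2l1, Nfe2l2, Pomp, Ptprc and the 4 genes of lowest adjusted p in each other pathway list, some of which are not reported here. Exon lengths and positions are from GENCODE M21 (protein-coding transcripts of the basic set) on mm10. Rows Psmb5-ps, Psmb6-ps, Psmb6-ps2 and Psmb7-ps2 held 0 counts and Psme2b, a near copy of Psme2, 23 to 95; how shared reads were counted was not given.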

Additional observations from a re-analysis of the deposited data

How the results depend on the processing

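The number of members called higher, 9 of 42 with edgeR and group alone, was the value that moved most: it was 20 with DESeq2, 39 with scaling by library size alone, 23 with upper-quartile factors, 22 with a filter of at least 5 CPM in 3 libraries, and 33 with the replicate block. It was 13 with DESeq2 size factors in edgeR, and 9 with limma-voom or without a filter on low counts. The 9 members were called again in each of these 8 alternatives. With 1 library left out it ran from 2 to 29, and all genes called from 3706 to 8548 (6938 with all). With both libraries numbered 3 left out it was 36, with 2 members lower (Psme1 and the near-floor Psmb11), and 10581 genes were called in all. The number called lower was 0 in every other alternative. Library-size scaling raised the ratio of summed CPM to 1.45 for the alpha ring, 1.56 for the beta ring, 1.61 for the ATPases, 1.52 for the non-ATPase subunits, 1.44 for the base chaperones, 1.72 for the Psmg chaperones and 1.29 for the caps. Among the genes named, the replicate block changed no calls beyond those given in the text. The causes of these moves were not tested.

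Folds near 0 changed sign, none of them called with all libraries under TMM. Psme1 was at 0.14 with library-size scaling, and Psmd6 at -0.078 without both libraries numbered 3. With 1 library left out Psma2 ran from -0.091 to 0.10, Psmd4 from -0.0016 to 0.17, Psmd6 from -0.13 to 0.11 and Pomp from -0.097 to 0.068. Pomp was also at 0.012 with DESeq2, 0.0037 with limma-voom, 0.012 with DESeq2 size factors, 0.26 with library-size scaling, 0.073 with upper-quartile factors, 0.037 with the 5 CPM filter and 0.0038 with the replicate block. Each tested member had at least 652 counts per library, and counting error was not separated from the spread between libraries.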
